A study of Mus musculus with 12 samples.

Results

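The Sp100-Sp140 locus of mouse chromosome 1 was described through the m6A peaks of lung RNA from asthmatic and control mice. It comprised 7 gene names carried by 8 gene identifiers, of 15332 gene names with a peak in the series. The genes were Sp100, Sp110, Sp140, A530032D15Rik, C130026I21Rik, AC167036, a name shared by 2 identifiers, and AC147806. They were chosen from the measured peaks of these same samples, so the numbers below are descriptions and no test was made on them. A peak belonged to the locus when it was assigned to a member or had been called on one. By this rule, 17 of 27292 peaks in the asthma group and 6 of 26102 peaks in the control group belonged to it, between 84963924 and 85709908 on chromosome 1 (GRCm38).

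All mice were female BALB/c, aged 6 to 8 weeks. The OVA group had been sensitized by injection of ovalbumin with aluminum hydroxide in PBS on days 0 and 7, and inhaled 3% ovalbumin aerosol daily from day 14 to day 20. The PBS group received PBS alone by both routes. After the last challenge, airway responses to nebulized methacholine were measured under anesthesia, and lavage fluid and lung tissue were collected afterwards. Whether the sequenced mice were among those tested and lavaged is not given in the sources used here. Lung RNA of 3 mice per group, depleted of ribosomal RNA, gave 12 libraries, namely an immunoprecipitated (IP) library and an input library for each mouse. In the IP library, RNA fragments had been pulled down with an antibody against N6-methyladenosine (m6A), while the input library held the fragments without the pull-down. The peak lists used here are 1 per group, so no value of a single mouse was analysed here, no spread between mice can be given, and no difference between the groups was tested. The lists hold no read counts per peak, so the depth behind each peak is unknown.

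The methyl mark m6A is written on adenosines of RNA by a methyltransferase complex and read by binding proteins that act on splicing, export, translation and decay. A peak marks a stretch of transcript where fragments are more frequent in the IP than in the input, and its calling needs enough transcript to be seen at all. The members with known products belong to the speckled protein family, nuclear proteins known for an N-terminal HSR domain and a SAND DNA-binding domain. Sp100 is a resident of PML nuclear bodies, Sp140 carries chromatin-reading domains, and the family is induced by interferons. In mice, Sp110 and Sp140 lie in a region known for susceptibility to tuberculosis, and Sp140 restrains type I interferon responses. The region is also known for near-identical repeats, so reads of its copies are hard to place.

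In the OVA list, 11 of the 17 member peaks had no overlapping PBS peak, while over the whole OVA list 19.4% of peaks had none. Overlap meant at least 1 bp shared between the exonic blocks of the peaks. In the PBS list, 0 of the 6 member peaks lacked an overlapping OVA peak, against 14.5% of all PBS peaks. The members had been chosen with both lists in view, so the background shares are given beside the counts and nothing is read from the difference. Every member had a peak in the OVA list, whereas 4 of the 7 names, Sp100, Sp110, Sp140 and AC167036, had one in the PBS list. Over all gene identifiers on which a peak was called in either list, 10.8% had peaks in OVA alone and 7.22% in PBS alone. These shares count identifiers, whereas the members are counted by name, and the AC167036 identifier ENSMUSG00000118640 had a peak in OVA alone. In bulk lung, fewer cells of a type and less RNA per cell cannot be told apart, and a peak found in 1 list alone does not separate a change in methylation from a change in the amount of transcript.

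**Figure D1:**
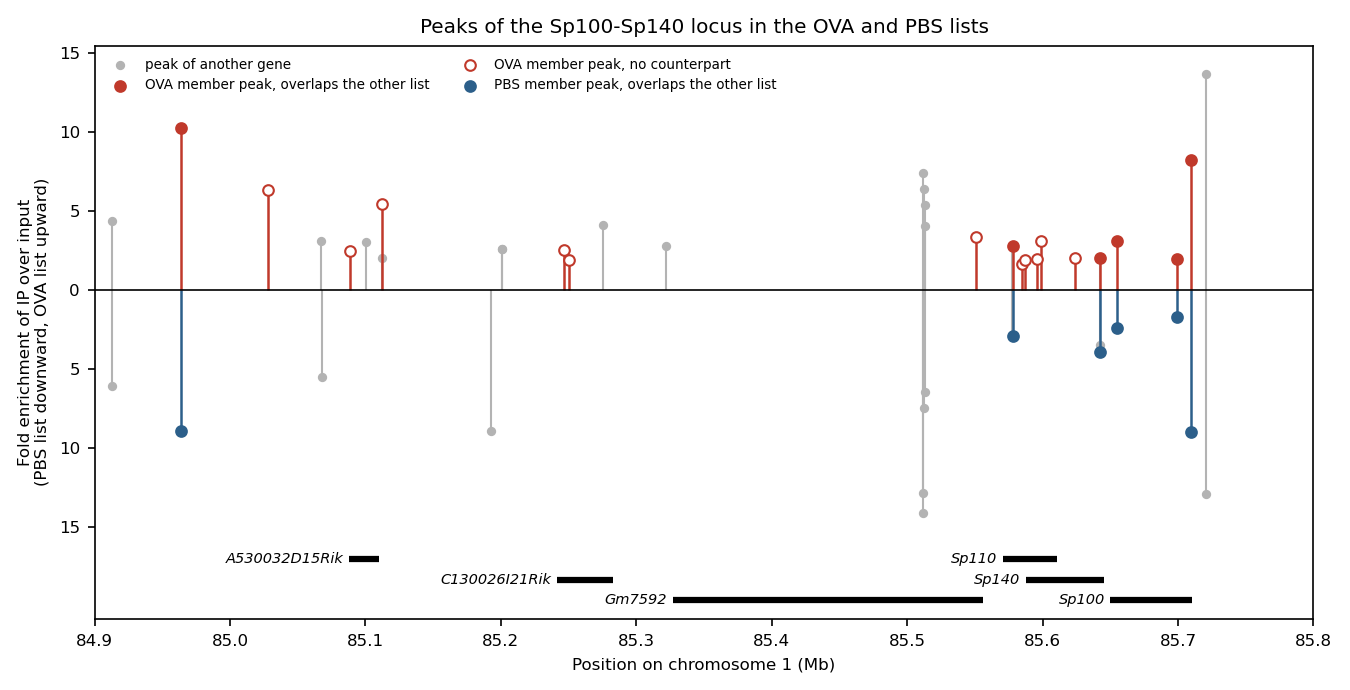
Peaks between 84.9 and 85.8 Mb of chromosome 1, with the fold enrichment of IP over input drawn upward for the OVA list and downward for the PBS list. Filled coloured points are member peaks that overlap the other list, open points the 11 OVA member peaks that do not, grey points peaks of other genes, and black bars RefSeq gene spans. The open points lie over the repeated genes and over Sp110 and Sp140, and none lies over Sp100.

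Sp100 (ENSMUSG00000026222) gave the same 3 peaks in both lists. The first, annotated as 5' UTR, ran from 85649988 to 85659773 in both lists, with 2 exonic blocks of 140 and 71 bp. Its fold enrichment of IP over input was 3.15 in OVA, higher than 28.1% of that list, and 2.37 in PBS, higher than 17.2%. Its first base is the first base of the RefSeq transcript whose promoter was read here. The second, in exon 14 of 17, had 4 blocks. It ran from 85697020 to 85701438 in the OVA list with a fold enrichment of 1.98, and began and ended 30 bp further inside in the PBS list, where the fold enrichment was 1.69. The third lay in the 3' UTR and was the widest of the locus by exonic length.

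The Sp100 3' UTR peak covered 810 bp in OVA, from 85709099 to 85709908, and 840 bp in PBS, ending on the same base, 90 bp before the RefSeq end of the gene. It reached a fold enrichment of 8.24 in OVA and 8.99 in PBS, above 63.6% and 67.9% of the peaks of the own list. Its log10 FDR of -183 in OVA and -176 in PBS was the lowest among member peaks of each list. Sp100 therefore had no member peak without a counterpart. Its peaks at the start, in the middle and at the end of the transcript stood in both groups, and the third was the only one with a fold enrichment above the median of its list, 5.59 for OVA and 5.44 for PBS.

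Sp110 (ENSMUSG00000070034), a nuclear body protein annotated with innate immune response, had 5 OVA peaks and 1 PBS peak. The shared peak, in the 3' UTR from 85576959 to 85579058, had identical coordinates in both lists, with enrichments of 2.78-fold in OVA and 2.87-fold in PBS. The other 4 lay on the OVA list alone. From the end of this minus-strand gene towards its start, they began at 85585061, 85586076, 85595549 and 85598316, with fold enrichments of 1.66, 1.90, 2.01 and 3.10. The last of these, in the 5' UTR, had 2 blocks of 81 and 99 bp and a log10 FDR of -21.3. All 5 OVA peaks were assigned to transcripts annotated as retained introns.

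The 4 unmatched Sp110 peaks had low fold enrichments for the OVA list. The weakest exceeded 4.45% of all OVA peaks, and the strongest exceeded 27.5%. Across the series, 35 of 13887 genes on which OVA peaks were called had at least 4 OVA peaks without a counterpart, and Sp110 was 1 of these. On Sp110 the lists thus coincided base for base at the 3' end, and along the rest of the gene the PBS list had no peak.

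Sp140 (ENSMUSG00000070031), which carries PHD and bromodomain modules that bind histones, had 2 OVA peaks and 1 PBS peak. Towards its 3' end, the OVA peak from 85642587 to 85642737, in exon 14 of 17, lay within the PBS peak from 85641834 to 85642737. The peak was enriched 2.08-fold in OVA and 3.91-fold in PBS, which placed it above 11.6% and 37.3% of the respective lists. The PBS peak reached back into exon 13 with a block of 15 bp. The second OVA peak was spread over 4 short blocks of 24, 54, 66 and 7 bp from 85620134 to 85628184, annotated to exon 6, and no PBS peak overlapped it. It also had a fold enrichment of 2.08, at a log10 FDR of -9.32. The OVA list therefore held an additional upstream peak on Sp140, while at the shared place the PBS peak was the one ranked higher within its own list.

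**Figure D2:**
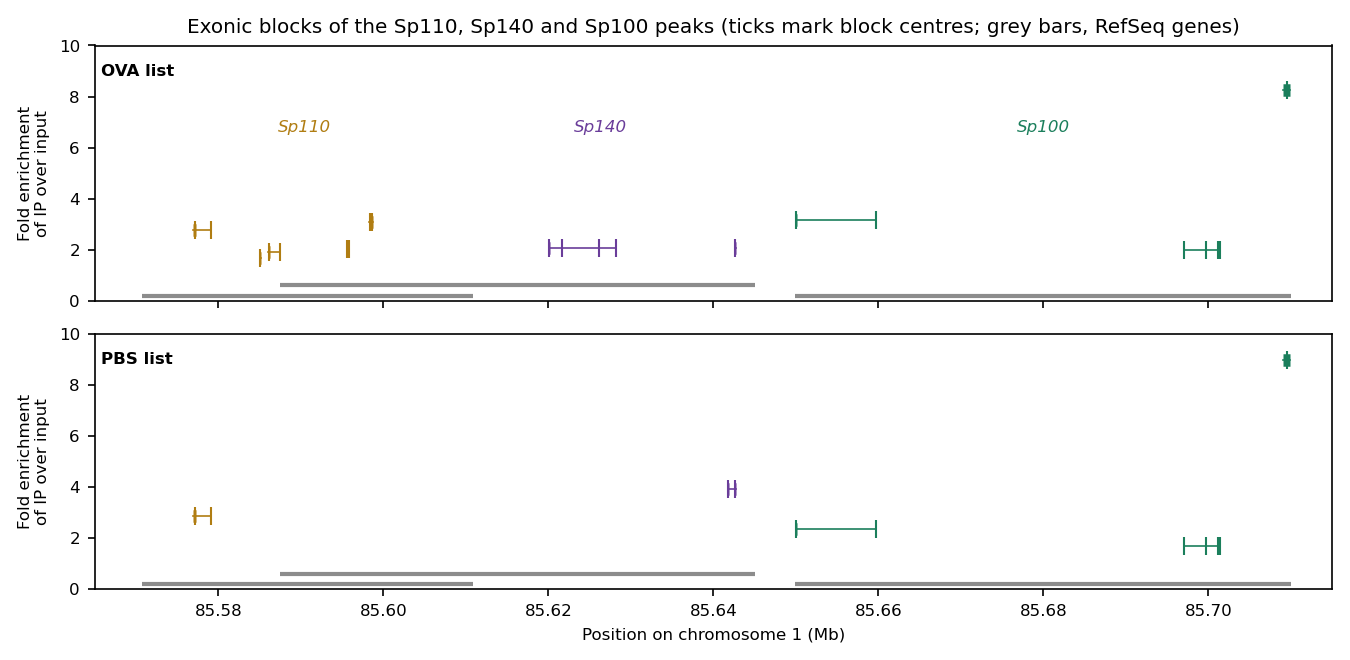
Exonic blocks of the Sp110, Sp140 and Sp100 peaks in the OVA list (upper panel) and the PBS list (lower panel), placed by position on chromosome 1 in Mb (horizontal) and by the fold enrichment of IP over input (vertical). Ticks mark block centres, thin lines join the blocks of a peak, and grey bars are RefSeq gene spans. The 3 Sp100 peaks recur in both panels, while 4 Sp110 peaks and 1 Sp140 peak appear in the upper panel only.

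The remaining members are genes without an established function or repeated copies, and their peaks are uncertain, because reads of near-identical copies could have been placed on either. Together they had 7 OVA peaks, of which 6 had no counterpart, beside 19.4% of all OVA peaks, and 1 PBS peak. A530032D15Rik and C130026I21Rik are both annotated with nuclear body. The annotation and the calling disagreed on 2 of the 17 OVA member peaks, both among these genes, and on 22.5% of all OVA peaks. A peak from 85088533 to 85088682, enriched 2.48-fold, was called on A530032D15Rik (ENSMUSG00000089844) and assigned to the pseudogene Gm18342. A peak from 85112269 to 85112597 was called on C130026I21Rik (ENSMUSG00000052477) and assigned to A530032D15Rik.

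That second peak had a fold enrichment of 5.46 and a log10 FDR of -88.3, the lowest among the 11 OVA member peaks without a counterpart. It lay outside the RefSeq span of both genes it was credited to, which run from 85088139 to 85110297 for A530032D15Rik and from 85241286 to 85282883 for C130026I21Rik. In RefSeq it overlapped the long noncoding RNA A530040E14Rik and the pseudogene Gm35498. The unmatched peak with the lowest FDR was thus one on whose gene the calling, the annotation and RefSeq differed. Counted by calling alone, C130026I21Rik had 3 OVA peaks and A530032D15Rik had 1, and neither had a PBS peak.

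On C130026I21Rik itself, a peak from 85246428 to 85246607 had a fold enrichment of 2.57. A second, of 3 blocks from 85247115 to 85254150, had 1.93 and a log10 FDR of -1.33, the weakest of the 17. Both also fell within the RefSeq gene Gm38510, which overlaps C130026I21Rik. AC147806 (ENSMUSG00000118607), within the RefSeq gene Gm7592, had 1 OVA peak from 85550512 to 85550750 with a fold enrichment of 3.37. These 3 peaks were found in the OVA list alone.

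AC167036 held the highest fold enrichment among member peaks of the OVA list. The peak of the identifier ENSMUSG00000118590 ran from 84963924 to 84964189, with a fold enrichment of 10.3 and a log10 FDR of -9.33. The PBS list had a peak of 60 bp inside it, from 84964042 to 84964101, with a fold enrichment of 8.88 and a log10 FDR of -1.48. The peak was thus present in both groups, over a shorter stretch in the PBS list. The other identifier, ENSMUSG00000118640, had an OVA peak alone, from 85028191 to 85028577, with a fold enrichment of 6.37. RefSeq places pseudogenes at both positions, Gm15433 and Gm7582.

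Sorted by fold enrichment, member peaks stood low in the OVA list. There 14 of the 17 lay below the list median, against 50.0% of all OVA peaks. In the PBS list 4 of the 6 did, near the 50.0% of all PBS peaks. Over all OVA peaks below the median, 28.7% had no counterpart, while at or above it 1365 of 13649 had none. Among member peaks below the median, 10 of 14 had none. In the PBS list, 19.3% of all peaks below the median had no counterpart, and 0 of the 4 member peaks below it. Whether peak strength plays a part in the member counts was not tested. Every member peak had an FDR under 0.05, as did 98.1% of all OVA peaks and 97.8% of all PBS peaks.

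The transcript structure of the member peaks was also recorded. Several exonic blocks made up 8 of the 17 OVA and 4 of the 6 PBS peaks, against 24.1% and 21.4% of all peaks. Transcripts annotated as retained introns were assigned to 7 OVA and 3 PBS member peaks, against 20.4% and 20.1% of all. By annotated region, 6 OVA member peaks lay in a 3' UTR, 9 in exons and 2 in a 5' UTR. Across the OVA list, the 3' UTR held 52.7% of peaks and exons 35.7%. These shares come from few peaks of few genes and are descriptions.

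Opposite-strand genes overlap several members, and 3 of the 17 OVA and 2 of the 6 PBS member peaks coincided with a peak on the other strand, against 4.86% and 4.77% of all peaks. The shared Sp110 peak lay over a peak of G530012D18Rik, with 330 bp in common, and the G530012D18Rik peak was enriched 2.80-fold in OVA and 2.89-fold in PBS. The shared Sp140 peak lay over a peak of Gm17017, enriched 1.96-fold in OVA and 3.45-fold in PBS. The OVA peak at 85112269 lay over an A530040E14Rik peak with a fold enrichment of 2.06. The library protocol marks strand, but whether strand was used in calling is not given in the sources used here, so the gene of origin of these peaks is uncertain. Sp110 and Sp140 also face each other over 23360 bp of their RefSeq spans, which holds the Sp110 peaks starting at 85595549 and 85598316. The Sp100 peaks coincided with no other peak of their lists.

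Promoters of the members were taken from the RefSeq table of GRCm38.p6, which held 7 promoters for 5 of the 7 members. A stretch of 205 bases before the transcript start given in that table is shown for the 3 genes in which it recurs, and was picked for that recurrence. It lies inside the RefSeq span of each of the 3 genes, so each span reaches further upstream than this start. It lies at chr1:85109863-85110067 on the minus strand for A530032D15Rik, at chr1:85270567-85270771 on the minus strand for C130026I21Rik, and at chr1:85600460-85600664 on the plus strand for Sp140. The capital marks the single position that differs.
A530032D15Rik: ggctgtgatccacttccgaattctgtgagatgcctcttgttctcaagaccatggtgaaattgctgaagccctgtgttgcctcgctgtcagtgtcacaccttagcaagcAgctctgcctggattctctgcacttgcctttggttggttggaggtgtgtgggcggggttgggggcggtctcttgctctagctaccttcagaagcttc
C130026I21Rik: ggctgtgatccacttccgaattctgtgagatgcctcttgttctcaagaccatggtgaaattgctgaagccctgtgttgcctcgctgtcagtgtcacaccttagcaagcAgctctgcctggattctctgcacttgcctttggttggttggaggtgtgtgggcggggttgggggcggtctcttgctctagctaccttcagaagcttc
Sp140: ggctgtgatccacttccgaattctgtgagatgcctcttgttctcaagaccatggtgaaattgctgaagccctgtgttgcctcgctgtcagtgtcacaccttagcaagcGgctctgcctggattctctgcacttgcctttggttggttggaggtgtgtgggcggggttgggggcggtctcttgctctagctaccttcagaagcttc
The A530032D15Rik and C130026I21Rik stretches were identical, and each matched Sp140 at 204 of 205 bases. Counted from 1 at the first printed base, with the Sp140 base first, the difference was G109A in both. An exact match of 30 bases to this stretch occurred in 3 of the 32851 promoters of the table, those of the same 3 genes. No member peak lay in these stretches, and the likeness of the transcribed parts was not computed. Of these genes, Sp140 had a peak in both lists, and the others had peaks in the OVA list alone.

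Interferons induce genes through short promoter motifs that interferon regulatory factors and other interferon-activated factors bind. The 250 bases before each start were searched on both strands for the interferon regulatory factor element AANNGAAA, the gamma-activated motif TTCNNNGAA and the TATA motif TATAAA. AANNGAAA was found in Sp100, whose 2 promoter windows overlap and hold the same pair of matches, and in none of the other member promoters, while 21.3% of all promoters held it. TTCNNNGAA was in 7.02% of all promoters and TATAAA in 12.4%, and neither was in any of the 7 member promoters. The 100 bases before the start at which the first Sp100 peak begins, chr1:85649888-85649987 on the plus strand, are shown with the AANNGAAA matches, which lie on the minus strand and share a base, in capitals.
Sp100: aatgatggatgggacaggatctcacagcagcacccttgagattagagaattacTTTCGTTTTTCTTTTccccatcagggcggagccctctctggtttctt
The RefSeq span of Sp100 begins at 85649948, the base shared by the matches, so the match from 85649948 to 85649955 lies inside the span. A match of such short letters is frequent, and these counts describe the sequence only.

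Partners of the PML nuclear body, where SP100 protein resides, were looked up as genes on which peaks were called. Of 19 listed names, 14 had an OVA peak and 13 a PBS peak, with 38 and 40 peaks in all. The listed name Trim19 is another name of Pml. Lacking a counterpart were 6 OVA and 7 PBS peaks, beside 19.4% and 14.5% of all peaks of the lists. Pml, which builds the bodies, had 5 OVA and 4 PBS peaks, with a highest fold enrichment of 12.7 and 13.5 in the respective list. Its additional OVA peak, from 58249666 to 58249756 on chromosome 9, was enriched 2.74-fold. Daxx, a histone chaperone recruited to the bodies, had 2 peaks in each list, all with a counterpart. Rnf4, a ubiquitin ligase for SUMO-modified proteins, had 2 OVA calls, one inside the other, with fold enrichments of 1.25 and 1.34, and no PBS peak. The 7 PBS peaks without a counterpart lay on Cabin1 and Senp1, with 2 each, and on Asf1a, Ubn1 and Atrx.

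Relatives of the family that carry SAND or PHD-bromodomain modules had peaks on 7 of 10 names in both lists, 25 in OVA and 23 in PBS. Of these, 2 OVA peaks, on Trim33 and Baz2a, and 0 PBS peaks had no counterpart, beside 19.4% of all OVA and 14.5% of all PBS peaks. Deaf1, a SAND-domain transcription factor, had 2 peaks in each list. Of the 10 type I interferon genes reported here, a list reduced by 1 gene, 6 had a peak in each list, with 13 OVA and 13 PBS peaks, and 1 OVA and 0 PBS peaks had no counterpart. The unmatched peak lay on Stat2, which carries the interferon signal from the receptor to the nucleus, from 128270559 to 128270649 on chromosome 10, and was enriched 2.97-fold. The receptor genes Ifnar1 and Ifnar2 had 2 and 1 peaks in each list, all with a counterpart.

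Cell type markers were looked up in the same way, as peaks and not as levels. Of the T cell markers, Cd3e had 3 OVA and 2 PBS peaks and Cd4 had 2 and 1, and on each gene 1 OVA peak had no counterpart, beside 19.4% of all OVA and 14.5% of all PBS peaks. The neutrophil markers S100a8 and S100a9 had 1 peak each in the PBS list and 0 in the OVA list. Of 3 B cell markers, Ms4a1 alone had peaks, 1 in OVA and 2 in PBS, and of 3 macrophage markers Mrc1 alone, with 2 in each list. The eosinophil markers Siglecf, Epx and Prg2 had none in either list. Of the lung epithelium markers, Sftpb, Scgb1a1 and Foxj1 had peaks in both lists and the surfactant gene Sftpc had none. Foxj1 had 2 OVA and 3 PBS peaks, of which 1 PBS peak had no counterpart. Both endothelial markers, Pecam1 and Cdh5, had peaks in both. The part of the cell composition in the member peaks was not tested.

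Neighbouring genes within the locus span gave 15 further OVA peaks, 6 of them without a counterpart, and 10 PBS peaks, 1 of them without. Those found in the OVA list alone lay on Gm10553, A530040E14Rik, Gm16026, Gm16025 and, as 2 near-coincident calls, Gm7609, which are noncoding or predicted genes among the repeats. The Gm16025 peak was called on Gm2619, and 1 of the Gm7609 peaks on the identifier ENSMUSG00000118618, so their gene is uncertain. The PBS list had a peak assigned to Gm7609 but called on Gm6264 elsewhere, from 85192123 to 85192806, with a fold enrichment of 8.88. A630001G21Rik, next to Sp100, was enriched 13.7-fold in OVA and 12.9-fold in PBS. Outside the span, between 84 and 87 Mb, 10 of 37 OVA and 5 of 33 PBS peaks had no counterpart. These shares were 27.0% and 15.2%, beside 19.4% of all OVA and 14.5% of all PBS peaks. On Htr2b, which encodes a serotonin receptor, all 4 OVA peaks assigned to it lacked a counterpart. Of these, the peak from 86110992 to 86116588 was called on Psmd1, so its gene is uncertain.

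Over bins of 1 Mb, the bin from 85 to 86 Mb of chromosome 1 held 37 OVA and 19 PBS peaks, a surplus of 18 in OVA. Among 2080 bins ranked by OVA minus PBS peaks, with a median of 0, this surplus was the second largest. The bin from 84 to 85 Mb differed by 1. The largest OVA surplus, 23, was on chromosome 18, in a bin of 200 OVA and 177 PBS peaks over protocadherin genes. The bin from 29 to 30 Mb of chromosome 17, with Rnf8, Trp53cor1 and Rab44, followed with 14. Next came 3 bins with a surplus of 12. They lay on chromosome 12, with Apob, on chromosome 17, with Prrc2a and the histocompatibility gene H2-D1, and on chromosome 5, with Htt and Rnf4. On chromosome 12 a single gene led, since Apob had 13 more OVA than PBS peaks. In the bin from 85 to 86 Mb of chromosome 1 several genes contributed, members such as Sp110, with 4 more OVA than PBS peaks called on it, and C130026I21Rik, with 3, and also Gpr55 outside the locus span, with 2.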

How the data were processed

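For 3 OVA and 3 PBS mice, IP and input libraries of lung RNA were sequenced. Reads were cleaned with FASTP, aligned with HISAT2 to the Ensembl release 101 genome, and peaks were called with exomePeak and annotated with ChIPseeker, all by the study. The authors' fold enrichment (IP over input, a ratio) was used as deposited. So was their score, the log10 p and log10 FDR from the peak caller of the authors, besides deposited block numbers and distances in bp. How the replicates were merged into 1 list per group is not given in the sources used here. Fold enrichments were ranked within the own list and not compared by ratio across lists.

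Listed starts count from 0, as the block sizes show, so 1 was added to each. Of the OVA and PBS peaks, 93.3% and 93.5% were called on a gene whose name is in RefSeq of GRCm38.p6. Overlap was computed on exonic blocks with a minimum of 1 bp; this step was tested on simulated data. A peak assigned to a member was counted for that gene, otherwise for the member on which it was called. Members and gene lists were chosen with earlier results of these data known. Genes named are all members, genes to which their peaks were assigned, the fixed lists, neighbours within 84 to 87 Mb, and the bins of 1 Mb outside the locus with the largest surplus of OVA peaks. The interferon list had 1 further gene, which is not reported here and was left out of its counts. Alternatives were other overlap rules, an FDR under 0.05, a fold enrichment of at least 2, protein-coding transcripts and either gene assignment. The share by strength, opposite-strand overlaps, transcript features and promoter motifs were chosen after the data were seen. Python 3.11.15, numpy 2.4.6, pandas 2.3.3 and matplotlib 3.10.9 were used.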

Additional observations from a re-analysis of the deposited data

How the results depend on the processing

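The member peak numbers in both lists stayed within 1.5 times of the reported ones when peaks were credited by the assigned gene or by the called gene alone, at an FDR under 0.05 and at a fold enrichment of at least 2. The numbers without a counterpart did so at the same FDR and fold enrichment, with overlapping genomic spans, and with overlap required on the same called gene. They were not recomputed by gene assignment. At a fold enrichment of at least 2, 8 OVA and 0 PBS member peaks had none. The share over all peaks was not computed at that FDR or fold enrichment. It was 19.1% of OVA and 14.2% of PBS peaks with genomic spans, and 19.7% and 14.7% with the same called gene. With peaks assigned to protein-coding transcripts alone, 8 OVA and 3 PBS member peaks were left. With identical start and end required, 4 of the 6 PBS member peaks had no counterpart, against 89.3% of all PBS peaks, and with an overlap of 50% of both peaks 1 had none, against 28.3%. In OVA, 15 of the 17 member peaks had none under the first rule, against 89.7% of all OVA peaks, and 12 under the second, against 31.4%. When every peak between 84.9 and 85.8 Mb was counted, an alternative chosen after seeing the data, there were 32 OVA and 16 PBS peaks, of which 17 and 1 had no counterpart, against 19.4% and 14.5% of all peaks. The transcript and span settings change which peaks are counted, and the overlap rules change what counts as a match.

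No paired analysis was possible because the peak lists used here hold 1 list per group with no value per mouse. Leaving out a replicate was not possible for the same reason. The count of peaks holding GGACT was not run, as sequence was read for promoters alone and no genome sequence covering the peaks was used. Depth per peak is unknown, so a missing peak cannot be told apart from a transcript too rare to show one.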
